A study of Mus musculus with 4 samples.

Results

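The BCL2 family genes described here are 10 apoptosis regulators of mouse liver, chosen by gene name out of 35522 genes listed for each library. Bid, Bad, Bcl2l11, Bax, Bak1, Bok and Bnip3 were taken as the 7 pro-death members, and Bcl2l1, Mcl1 and Bcl2 as the 3 pro-survival members. Livers were labelled Dph1 KO (2 libraries) or Control (2 libraries), and replicate numbers, given here in the order of deposit, only name a library. All 4 came from C57BL/6 mice given diethylnitrosamine (DEN), a carcinogen that liver enzymes turn into a DNA-alkylating agent, and were taken 1 day (24 h) afterwards. Dph1 is an enzyme of the pathway that makes diphthamide, a modified residue of the translation elongation factor eEF2. The allele, the cells that lost Dph1, the genotype behind the label Control, and the age and sex of the mice are not stated in the labels. Nor do they say that the libraries of a genotype came from separate animals, so p-values measure the spread among these samples only, and that spread may be technical. Livers without DEN were not analysed here.

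Proteins of the BCL2 family decide whether the outer mitochondrial membrane is opened, the step that frees cytochrome c and starts the caspase cascade. BAX and BAK form the pores, BH3-only proteins such as BID, BIM and BAD sense damage and set them off, and BCL-XL, MCL1 and BCL2 hold both in check. In hepatocytes BID carries the signal of death receptors to the mitochondria, and mice lacking BCL-XL or MCL1 in hepatocytes lose these cells to apoptosis. Much of the family's control lies in cleavage, phosphorylation and degradation of the proteins, which transcript levels do not measure.

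Library depth was 20410978 and 21137358 reads in genes for Dph1 KO, and 19474596 and 20355790 for Control. Dph1 itself had 421 and 689 reads in the Dph1 KO libraries and 1292 and 1228 in the Control libraries, a log2 fold change of -1.49 (SE 0.26, adjusted p = 0.0107, edgeR quasi-likelihood test). Its locus overlaps Ovca2 on the same strand, and reads remained in both libraries labelled Dph1 KO. With uniquely matched reads only, the log2 fold change of Dph1 was -1.93. The part of shared reads in the remaining count was not tested. The libraries of a genotype differed more within Dph1 KO than within Control, as a chi-square divided by its degrees of freedom showed (83.0 in Dph1 KO, 32.0 in Control). Fold changes also followed the GC content of the transcript, which bears on most of the members and is taken up after their values. Hepatocyte marker transcripts summed to 63220 and 69417 CPM (counts scaled to a common depth with TMM factors) in Dph1 KO, against 82162 and 99605 CPM in Control. Apoa1, singled out after the values were seen, carried the lower sum. The other 7 markers summed to 56955 and 59917 CPM in Dph1 KO, against 55748 and 66341 CPM in Control, which overlap. The hepatocyte sum was far above that of every other cell type's list, none of which exceeded 342 CPM in any library.

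Of the 10 members, 2 fell in Dph1 KO livers, Bid and Bak1, and none rose (edgeR quasi-likelihood test, Benjamini-Hochberg adjustment over 13303 genes, threshold 0.05). Across all genes tested, 12.3% were called in either direction, 7.47% as falls and 4.86% as rises. Bid, a BH3-only activator, was 3.17-fold lower by its fitted value, and Bak1, a pore former, was 2.14-fold lower. The other 8 members were not called, and 4 members in all had an unadjusted p under 0.05, each of them lower. Of all genes tested, 34.2% had such a p, 16.3% higher and 17.9% lower, so 4 of 10 is near that background. Both genes that fell are among the 7 pro-death members. With all 4 libraries, 0 of the 3 pro-survival members were called by edgeR or DESeq2 or had an unadjusted p under 0.05 by edgeR. With 12.3% of all genes called, counts this small cannot tell the classes apart. DESeq2 gave no adjusted p for Bcl2. In bulk liver, fewer cells of a type and less RNA per cell cannot be told apart.

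**Figure D1:**
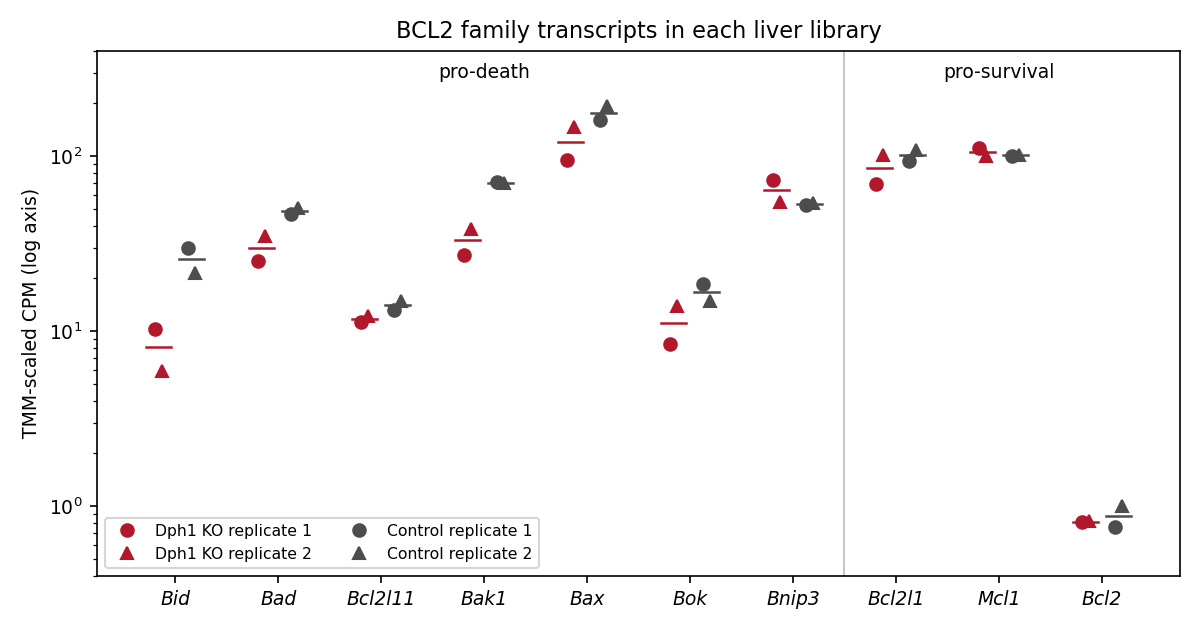
TMM-scaled CPM on a log axis for the 10 members in each library, with Dph1 KO left of Control within each gene and short lines at the mean of each genotype. Bid (10.2 and 5.95 CPM in Dph1 KO, 30.0 and 21.4 CPM in Control) and Bak1 (27.4 and 38.5 CPM in Dph1 KO, 70.9 and 70.0 CPM in Control) show the widest gaps, and Bcl2 lies near 1 CPM in all 4 libraries.

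Bid (gene ID 12122, chr6:120893119-120916820, minus strand, GRCm38) had 10.2 and 5.95 CPM in the Dph1 KO libraries and 30.0 and 21.4 CPM in the Control libraries, from 241 and 130 reads in Dph1 KO and 551 and 385 reads in Control. Both Dph1 KO libraries lay below both Control libraries. The nearest pair of libraries across genotypes was 1.07 apart on the log2 scale, more than the 0.78 between the Dph1 KO libraries or the 0.49 between the Control libraries. Its log2 fold change was -1.67 (SE 0.28, 95% interval -2.28 to -1.05, adjusted p = 0.00843, edgeR). Spliced reads showed the same direction, with 38 and 33 exon junction reads in Dph1 KO and 101 and 83 in Control. Relative to the Control mean, Dph1 KO held 30.9% of the junction reads, 28.6% of the exon reads and 68.9% of the intron reads. The intron counts were small, at 46 and 12 reads in Dph1 KO and 35 and 31 in Control, and overlapped between genotypes.

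The 3′ end of Bid lies 277 bases from that of Bcl2l13, a BCL2-like mitophagy receptor on the opposite strand, so the pair converge. Bcl2l13 had 45.4 and 37.9 CPM in Dph1 KO and 38.8 and 37.7 CPM in Control, with a log2 fold change of 0.12 (adjusted p = 0.676, edgeR), and the difference between the neighbours was not tested. The 250 bases upstream of the Bid start are shown because Bid had the largest log2 fold change of the members in size. They come from RefSeq (GRCm38.p6, chr6:120916825-120917074, minus strand, read 5′ to 3′), and have matches to the GC box GGGCGG in capitals.
Bid: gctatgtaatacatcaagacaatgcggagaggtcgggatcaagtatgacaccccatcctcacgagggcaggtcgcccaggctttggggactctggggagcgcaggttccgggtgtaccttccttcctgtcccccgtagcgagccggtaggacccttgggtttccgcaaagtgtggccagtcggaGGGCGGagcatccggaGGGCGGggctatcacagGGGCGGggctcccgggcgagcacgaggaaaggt
The stretch was 63.6% G or C, held 18 CpG pairs and matched the GC box 3 times, on the strand shown. At least 1 match on either strand was found in 32.7% of 32851 promoter windows of the same length.

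Bak1 (gene ID 12018, chr17:27019812-27028626, minus strand) encodes BAK, the pore former that sits in the outer mitochondrial membrane of healthy cells. It had 27.4 and 38.5 CPM in Dph1 KO, against 70.9 and 70.0 CPM in Control, from 646 and 842 reads in Dph1 KO and 1304 and 1259 reads in Control. The Control libraries were nearly equal, the Dph1 KO libraries were 0.49 apart on the log2 scale, and the genotypes were separated by 0.86. The log2 fold change was -1.10 (SE 0.22, 95% interval -1.59 to -0.61, adjusted p = 0.0175, edgeR). Exon junction reads were 157 and 198 in Dph1 KO and 327 and 312 in Control, so Dph1 KO held 44.7% of the Control mean. Bak1 overlaps Ggnbp1 on the opposite strand, whose log2 fold change was -0.56 (adjusted p = 0.105, edgeR). The labels do not say whether counting used strand, so reads of the pair cannot be told apart outside the junctions. Its upstream 250 bases (RefSeq, GRCm38.p6, chr17:27028628-27028877, minus strand, 5′ to 3′) are shown as the counterpart to Bid, in lower case because none of the motifs searched was found in it.
Bak1: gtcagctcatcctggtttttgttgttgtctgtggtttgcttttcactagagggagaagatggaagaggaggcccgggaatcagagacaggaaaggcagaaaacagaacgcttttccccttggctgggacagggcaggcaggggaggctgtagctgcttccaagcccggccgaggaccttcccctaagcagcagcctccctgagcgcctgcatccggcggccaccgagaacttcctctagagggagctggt
It was 58.4% G or C with 8 CpG pairs. The motifs searched on both strands were the GC box GGGCGG, the CCAAT box, the TATA box TATAAA and the E-box CACGTG, which were held by 32.7%, 33.9%, 12.4% and 6.02% of all promoter windows. Their absence says only that these letters are not in this window.

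Bax (gene ID 12028, chr7:45461695-45466898), the partner pore former that moves from the cytosol to mitochondria, was not called. It had 94.6 and 146 CPM in Dph1 KO and 160 and 192 CPM in Control. The genotypes did not overlap, but the gap of 0.14 on the log2 scale was smaller than the 0.62 between the Dph1 KO libraries. Its log2 fold change was -0.55 (SE 0.26, 95% interval -1.12 to 0.02, adjusted p = 0.158, edgeR). Bok (gene ID 51800, chr1:93685694-93695762), a BAX-like protein found mainly at the endoplasmic reticulum and Golgi, had 8.39 and 13.9 CPM in Dph1 KO and 18.5 and 14.8 CPM in Control. Here too the separation (0.09) was smaller than the spread within either genotype, and the log2 fold change of -0.58 (SE 0.26) was not called (adjusted p = 0.144, edgeR).

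Bad (gene ID 12015, chr19:6941855-6951893), a BH3-only protein that binds BCL-XL and is held back by phosphorylation, came closest to the threshold among the uncalled members. It had 25.0 and 34.9 CPM in Dph1 KO and 46.4 and 50.7 CPM in Control. Both Dph1 KO libraries lay below both Control libraries, by 0.41 on the log2 scale, against 0.48 between the Dph1 KO libraries. The log2 fold change was -0.70 (SE 0.22, 95% interval -1.17 to -0.22, adjusted p = 0.0569, edgeR), and DESeq2 called it (adjusted p = 0.0386). Bad overlaps Gpr137 on the opposite strand, which had a log2 fold change of -0.79 (adjusted p = 0.0784, edgeR). Bcl2l11 (gene ID 12125, chr2:128126038-128162547), the BH3-only activator BIM, had 11.3 and 12.2 CPM in Dph1 KO and 13.3 and 14.9 CPM in Control. Its 2 genotypes were 0.12 apart, close to the spread within each, with a log2 fold change of -0.26 (SE 0.20, adjusted p = 0.379, edgeR).

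Bnip3 (gene ID 12176, chr7:138890836-138909506), a BH3-like mitophagy receptor induced by hypoxia, was the only pro-death member with both Dph1 KO libraries above Control. It had 73.2 and 54.3 CPM in Dph1 KO and 52.7 and 53.9 CPM in Control. Dph1 KO replicate 2 was level with the Control libraries, and the log2 fold change of 0.26 (SE 0.22) was not called (adjusted p = 0.408, edgeR). Of its reads, 1034 and 676 were uniquely placed in Dph1 KO and 575 and 573 in Control, out of 1728 and 1188 in Dph1 KO and 969 and 970 in Control, so its level rests in part on shared reads.

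The pro-survival members overlapped between the genotypes. Bcl2l1 (gene ID 12048, chr2:152780668-152831682), which encodes BCL-XL, had 68.9 and 102 CPM in Dph1 KO and 93.2 and 109 CPM in Control. Dph1 KO replicate 2 lay between the Control libraries, and the log2 fold change was -0.24 (SE 0.24, 95% interval -0.77 to 0.29, adjusted p = 0.494, edgeR). Mcl1 (gene ID 17210, chr3:95658721-95663179), a short-lived guard of BAK and BIM, had 112 and 99.6 CPM in Dph1 KO and 101 and 102 CPM in Control. Its log2 fold change was 0.06 (SE 0.21, 95% interval -0.39 to 0.52, adjusted p = 0.855, edgeR). The intervals leave room for changes in either direction, so the tests do not show that Bcl2l1 or Mcl1 was the same in both genotypes. Bcl2 (gene ID 12043, chr1:106538179-106714290), the founding member, was close to the limit of detection, with 19 and 18 reads in Dph1 KO and 14 and 18 in Control and 0 exon junction reads in any library. Its log2 fold change of -0.11 had a 95% interval of -1.04 to 0.81 (adjusted p = 0.869, edgeR).

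**Figure D2:**
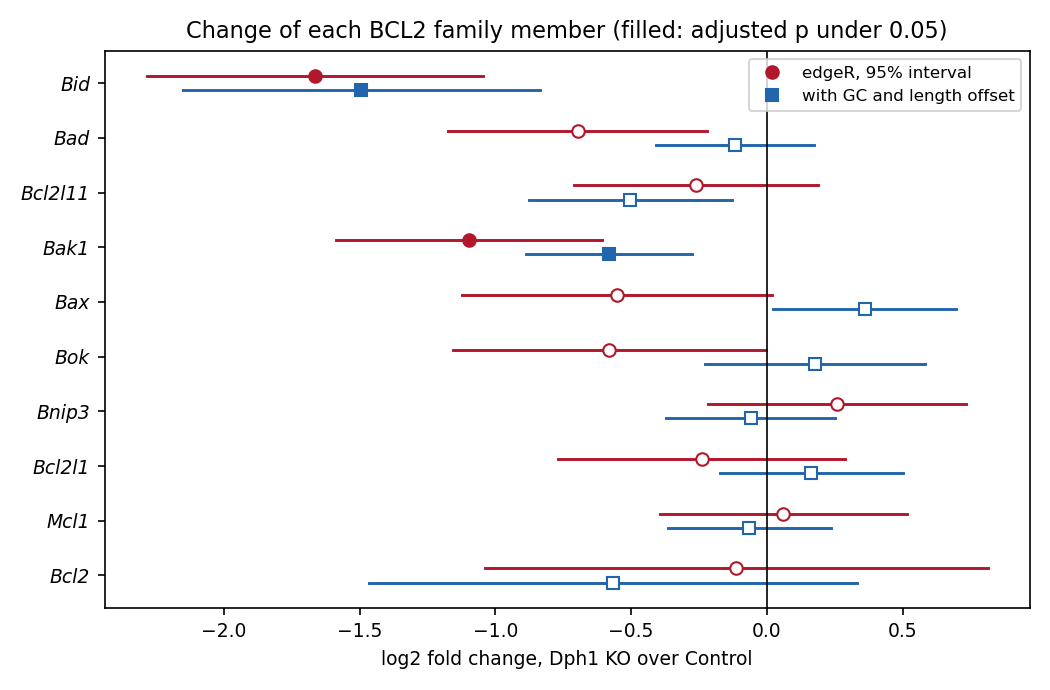
Log2 fold change of each member, Dph1 KO over Control, with its 95% interval, from edgeR with TMM scaling and from the same test with a GC and length offset. Bid (-1.67) and Bak1 (-1.10) lie below 0 in both fits, while Bax is at -0.55 without the offset and 0.36 with it.

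Set side by side, the 7 pro-death members had a median log2 fold change of -0.58, the 3 pro-survival members -0.11, and all genes tested 0.04. In all 7 pro-death members the genotypes did not overlap, with Dph1 KO lower in 6 and higher in Bnip3, whereas all 3 pro-survival members overlapped. Such separation was common with 2 libraries a side. Of all genes tested, 67.4% did not overlap, and 32.5% did so with Dph1 KO lower. For a single gene, an exact two-sided permutation test on 2 against 2 libraries cannot go below p = 0.333.

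The GC content of the members' transcripts moves with these differences. Among 12482 protein-coding genes tested, Spearman's rho between log2 fold change and GC content was -0.617 across genes, which are not independent replicates. The tested genes were split by GC content into 5 groups of equal size. In the group richest in GC (55.6% to 72.8%), the median log2 fold change was -0.56, and 21.4% of genes fell while 0.841% rose. Bak1, Bax, Bad, Bok and Bcl2l1 belong to that group. In the poorest group (31.0% to 44.0%), which holds Bnip3, the median was 0.48, and 0.681% fell while 10.5% rose. Bid, with a GC content of 51.3%, sat in the middle group, where the median was 0.07. Within its own group, 0.881% of genes had a lower log2 fold change than Bid and 11.1% a lower one than Bak1. By contrast, in the group of Bak1, 51.0% of genes were lower than Bax, 48.9% than Bok, 38.6% than Bad and 74.2% than Bcl2l1. For the remaining members, the share of lower genes in their own group was 17.4% for Bcl2, 25.1% for Bcl2l11, 27.0% for Bnip3 and 49.6% for Mcl1.

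**Figure D3:**
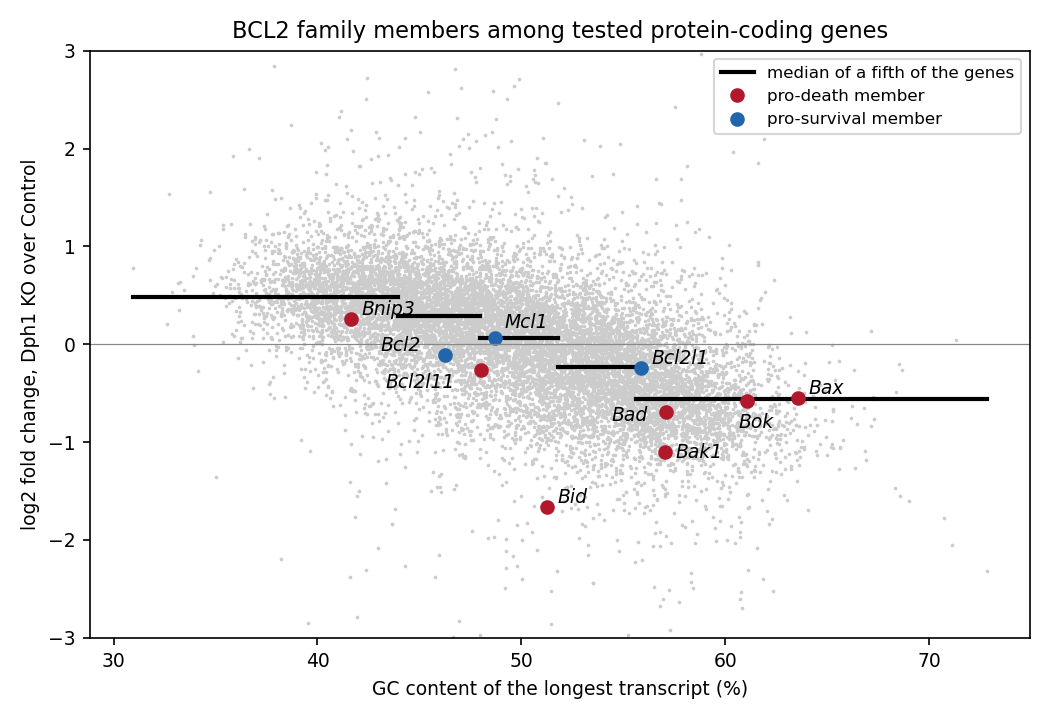
GC content of the longest transcript (horizontal, percent) against log2 fold change, Dph1 KO over Control, for 12482 protein-coding genes, with the members in colour and black bars at the median of 5 equal groups of genes by GC content. Bid lies far under the median of its group, whereas Bax and Bok lie on theirs. The 41 genes beyond 3 in either direction are outside the axis.

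With a smooth trend on GC content and length taken out of each library, 8.98% of all genes were called, and Bid and Bak1 were the members called. The log2 fold change of Bid became -1.49 (adjusted p = 0.0200, edgeR with the offset) and that of Bak1 -0.58 (adjusted p = 0.0345). Bax changed sign to 0.36 (adjusted p = 0.158) and Bok to 0.18, and Bad came to -0.12 (adjusted p = 0.595). The medians became -0.12 for the pro-death members, -0.06 for the pro-survival members and 0.0005 for all genes tested. The part of GC content in the uncorrected differences was not tested beyond this fit.

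The calls of Bid and Bak1 held in all 12 alternative fits. Bid ranged from -2.09 to -1.30 and Bak1 from -1.35 to -0.58 in log2 fold change over these. Only Bid and Bak1 were called with DESeq2 size factors in edgeR, where 12.8% of all genes were called, with scaling to the library total (25.7%), with uniquely matched reads (12.3%) and with exon reads (15.4%). The same pair was called when Control replicate 1 (5.43%), Control replicate 2 (3.82%) or Dph1 KO replicate 1 (9.74%) was left out. Bad joined them with no filter on low counts (adjusted p = 0.0450, 11% of all genes called) and in DESeq2 (15.9%). Bnip3 joined as a rise in limma-trend on log2(TPM + 1), where 27.3% of all genes were called. Without Dph1 KO replicate 2, 39.3% of all genes were called and 7 members with them. Bid, Bak1, Bax, Bad, Bok and Bcl2l1 then fell and Bnip3 rose, with the remaining Dph1 KO library assumed to vary as the Control pair does. Bax, Bok and Bcl2l1 were called in no other fit.

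**Figure D4:**
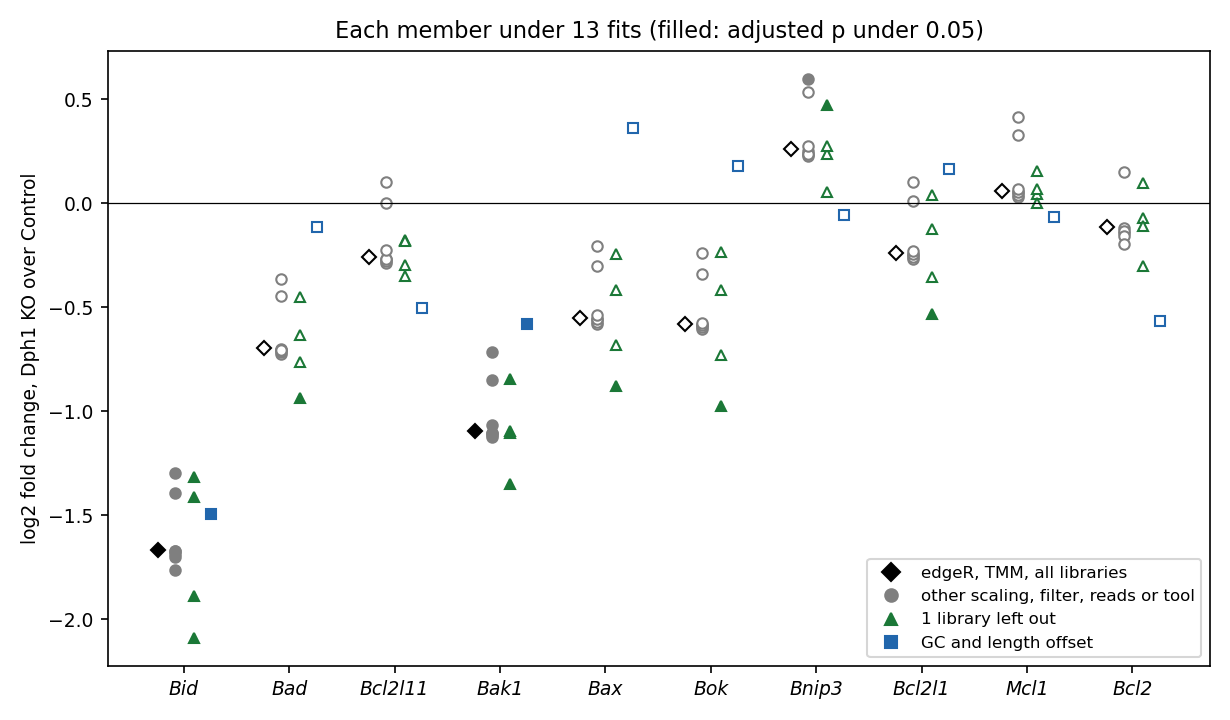
Log2 fold change of the 10 members, Dph1 KO over Control, in 13 fits, with called values filled (limma-trend left Bcl2 out as too low). Bid stays between -2.09 and -1.30 and Bak1 between -1.35 and -0.58, and both are called in every fit.

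Transcript levels per length were compared within libraries by TPM, the length-corrected share of a transcript in its library. Bax was the most abundant member in every library, at 219 and 270 TPM in Dph1 KO and 267 and 296 TPM in Control. It made up 55.1% and 64.2% of the summed pro-death TPM in Dph1 KO and 57.8% and 62.9% in Control. In Dph1 KO, Bnip3 (88.2 and 51.0 TPM), Bcl2l1 (58.4 and 70.2 TPM) and Mcl1 (67.4 and 48.3 TPM) came next, with overlapping ranges. Bad (34.8 and 40.9 TPM) and Bak1 (29.8 and 33.7 TPM) followed, then Bok (12.02 and 16.4 TPM), Bid (9.64 and 5.05 TPM), Bcl2l11 (3.81 and 3.40 TPM) and Bcl2 (0.229 and 0.157 TPM). In Control, Bcl2l1 (56.9 and 62.7 TPM) and Bak1 (55.4 and 50.1 TPM) came after Bax. They were followed by Bad (48.5 and 49.1 TPM), then by Bnip3 (45.2 and 42.8 TPM) and Mcl1 (44.2 and 41.1 TPM), whose ranges overlapped. Bid (23.4 and 15.0 TPM) and Bok (19.6 and 14.4 TPM) also overlapped, above Bcl2l11 (3.13 and 3.44 TPM) and Bcl2 (0.155 and 0.186 TPM). Bid thus stood below Bok in both Dph1 KO libraries and above it in both Control libraries.

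The balance of the family was described by ratios of TPM within each library, which do not depend on scaling between libraries. The summed pro-death over pro-survival TPM was 3.15 and 3.55 in Dph1 KO and 4.57 and 4.53 in Control, a mean of 3.35 ± 0.28 in Dph1 KO and 4.55 ± 0.02 in Control (SD, n = 2 each). Both Dph1 KO libraries were lower, by more than the spread within either genotype. TPM carry no GC correction. With the GC and length offset, the log2 fold changes of Bax (0.36), the largest part of the pro-death sum, and Bok (0.18) were above 0. Those of Bid (-1.49), Bak1 (-0.58), Bcl2l11 (-0.50), Bad (-0.12) and Bnip3 (-0.059) were below 0. Among the pro-survival members, Bcl2l1 was at 0.16, Mcl1 at -0.065 and Bcl2 at -0.57. Summed pro-death TPM was 397 and 421 in Dph1 KO and 462 and 471 in Control, and summed pro-survival TPM was 126 and 119 in Dph1 KO and 101 and 104 in Control. The direction of the pro-survival sum depends on scaling, since in TMM-scaled CPM it was 181 and 202 in Dph1 KO and 195 and 212 in Control, which overlap. Counted from uniquely matched exon reads per kilobase, the ratio was 2.86 and 3.35 in Dph1 KO and 4.38 and 4.36 in Control. Without Bax and Bnip3, a choice made after the values were seen, it was 0.714 and 0.839 in Dph1 KO and 1.48 and 1.27 in Control.

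Ratios of single pairs separated the genotypes as well, but Bid or Bak1, the members that fell, stands in each pair except Bax and Bad over Bcl2l1. Among single genes tested, 67.4% did not overlap between genotypes, and no such share was computed for ratios. Bak1 over Mcl1, the pore former and a guard that binds it, was 0.442 and 0.698 in Dph1 KO and 1.25 and 1.22 in Control. Bak1 over Bcl2l1 was 0.510 and 0.480 in Dph1 KO and 0.974 and 0.799 in Control, and Bax over Bcl2l1 was 3.75 and 3.85 in Dph1 KO and 4.70 and 4.73 in Control. Bid over Bcl2l1 was 0.165 and 0.0719 in Dph1 KO and 0.411 and 0.239 in Control. Bad over Bcl2l1 was 0.595 and 0.583 in Dph1 KO and 0.854 and 0.784 in Control. Between the pore formers, Bax over Bak1 was higher in Dph1 KO, at 7.35 and 8.02, against 4.82 and 5.92 in Control. The ratios are given without a test, since an exact permutation test on 2 against 2 libraries cannot go below p = 0.333. The GC content of the transcripts differs between the genes of a ratio, and its part was not tested.

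**Figure D5:**
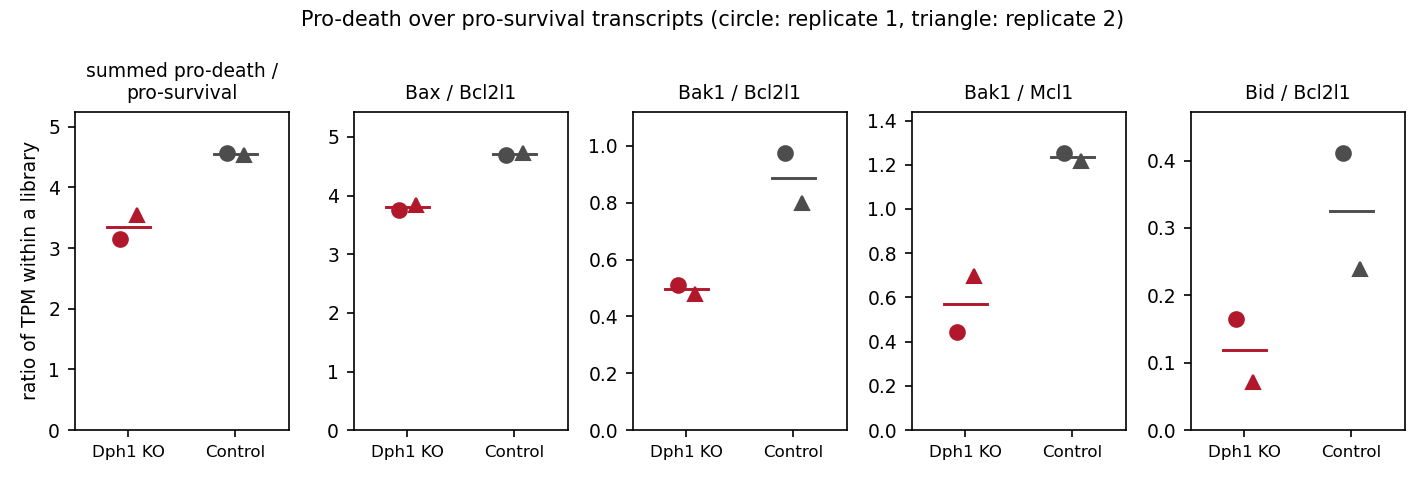
Ratios of TPM within each library for the summed members and for 4 pairs, with Dph1 KO left of Control, replicate 1 as circles and replicate 2 as triangles. Every ratio shown is lower in both Dph1 KO libraries than in both Control libraries, from 3.15 and 3.55 against 4.57 and 4.53 for the summed members to 0.165 and 0.0719 against 0.411 and 0.239 for Bid over Bcl2l1.

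Outside the 10 members, 15 other BCL2 family genes were listed and 10 passed the filter on low counts. Of these 10, 1 rose and none fell, and 2 had an unadjusted p under 0.05 by edgeR, both higher. Over all genes tested, 4.86% rose and 7.47% fell, and 16.3% were higher and 17.9% lower at such a p. Their median log2 fold change was 0.29. Pmaip1, which encodes the p53-induced BH3-only protein NOXA that neutralises MCL1, had 10.9 and 9.01 CPM in Dph1 KO and 5.66 and 2.95 CPM in Control. Both Dph1 KO libraries were above both Control libraries, and Pmaip1 rose by 1.21 in log2 fold change (SE 0.31, adjusted p = 0.0338, edgeR). The value was 0.83 with the GC offset (adjusted p = 0.0941), and its call was also lost without Control replicate 2, where the log2 fold change was 0.82. Bbc3, which encodes PUMA, another BH3-only target of p53, had 34.5 and 34.4 CPM in Dph1 KO and 29.7 and 39.5 CPM in Control. Its log2 fold change was -0.0070 (adjusted p = 0.985, edgeR), but 0.90 with the GC offset (adjusted p = 0.0386), so the direction depends on the correction.

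Bcl2l14, a BCL2-like gene, had 7.37 and 7.41 CPM in Dph1 KO and 3.81 and 4.78 CPM in Control, with a log2 fold change of 0.78 (adjusted p = 0.0610, edgeR) and 0.83 with the GC offset (adjusted p = 0.0416). The pro-survival gene Bcl2l2, which encodes BCL-W, had 17.4 and 15.3 CPM in Dph1 KO and 12.2 and 13.1 CPM in Control (log2 fold change 0.37, adjusted p = 0.214, edgeR). Bnip3l, the mitophagy receptor NIX, had 39.8 and 29.2 CPM in Dph1 KO and 24.1 and 29.9 CPM in Control (log2 fold change 0.36, adjusted p = 0.267). The BH3-only genes Bmf and Bik had log2 fold changes of 0.23 and -0.54, and Bcl2l12 had -0.29, none of them called. Bcl2a1b, at 1.30, was not called either, and shares sequence with its tandem copies. Bcl2a1a, Bcl2a1d, Bcl2l15 and Hrk were below the filter, and Bcl2l10 had 0 reads in all libraries, which allows up to 0.127 to 0.167 CPM at a floor of 3 reads a library.

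Upstream of Bid, the death receptor arm had 9 tested genes of 10 listed, of which none rose and 1 fell. At an unadjusted p under 0.05 by edgeR, 0 were higher and 2 lower. Over all genes tested, 4.86% rose and 7.47% fell, and 16.3% were higher and 17.9% lower at that p. Fadd, the adaptor that brings caspase-8 to the receptor, fell to 15.6 and 17.5 CPM in Dph1 KO, against 30.2 and 26.5 CPM in Control (log2 fold change -0.77, adjusted p = 0.0344, edgeR). With the GC offset it was -0.70 (adjusted p = 0.0244). Downstream of the pores, 2 of 18 genes of the apoptosome, the caspases and their inhibitors rose and none fell, while 6 were higher and 2 lower at an unadjusted p under 0.05, against the same shares over all genes. Birc6, a giant inhibitor of apoptosis, had 96.2 and 65.9 CPM in Dph1 KO and 41.3 and 44.1 CPM in Control (log2 fold change 0.92, adjusted p = 0.0329, edgeR), and was not called with the GC offset (0.30).

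Of 18 partners and modifiers of the proteins, 1 rose and 1 fell, where 4.86% of all genes tested rose and 7.47% fell. An unadjusted p under 0.05 by edgeR was held by 5 that were higher and 2 that were lower. Over all genes tested, the shares were 16.3% and 17.9%. Usp9x, a deubiquitinase that stabilises MCL1, rose to 127 and 77.1 CPM in Dph1 KO, against 45.3 and 47.9 CPM in Control (log2 fold change 1.13, adjusted p = 0.0242, edgeR). Akt1, the kinase that phosphorylates BAD, fell to 48.1 and 62.9 CPM in Dph1 KO, against 92.4 and 114 CPM in Control (-0.89, adjusted p = 0.0345). Neither was called with the GC offset, at 0.31 for Usp9x and -0.28 for Akt1. Of 13 tested transcription factors known to act on BCL2 family genes, none rose and 2 fell. At an unadjusted p under 0.05 by edgeR, 1 was higher and 3 were lower, against 16.3% higher and 17.9% lower over all genes tested. Trp53, which encodes p53, had 31.4 and 34.4 CPM in Dph1 KO and 58.4 and 57.4 CPM in Control (-0.81, adjusted p = 0.0280), and stayed called with the offset (-0.52, adjusted p = 0.0476). Rela, an NF-kappaB subunit, had 87.6 and 113 CPM in Dph1 KO and 177 and 172 CPM in Control (-0.80, adjusted p = 0.0446), and was not called with it (-0.21). Of 10 mitophagy receptors and partners of Bnip3, none rose and 1 fell, and 1 was higher and 3 lower at an unadjusted p under 0.05 by edgeR. The gene that fell was Map1lc3b, the autophagosome protein LC3B, with 126 and 170 CPM in Dph1 KO and 256 and 291 CPM in Control (-0.88, adjusted p = 0.0444). It stayed called with the offset (-0.70, adjusted p = 0.0323).

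These 7 genes outside the family were also fitted with 1 library left out. Without a Control library, the spread rests on the Dph1 KO pair, which differed more than the Control pair, and fewer of all genes were called. None of Birc6, Fadd, Usp9x, Akt1, Trp53, Rela and Map1lc3b was called without Control replicate 1 or without Control replicate 2, although the log2 fold changes stayed close. Without Control replicate 1 they were 0.87 for Birc6, -0.68 for Fadd, 1.08 for Usp9x, -1.04 for Akt1, -0.81 for Trp53, -0.79 for Rela and -0.98 for Map1lc3b. Without Control replicate 2 they were 0.97, -0.87, 1.17, -0.74, -0.83, -0.83 and -0.79 in the same order. Rela (-0.61) and Map1lc3b (-0.66) were also not called without Dph1 KO replicate 1. Fadd, Trp53 and Rela lost their calls with scaling to the library total and in limma-trend, and Akt1 in limma-trend.

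Transcripts of other cell types were read from 9 marker lists, of which 37 of 46 genes were tested, 5 fell and none rose. Over all genes tested, 7.47% fell and 4.86% rose. Hepatocyte markers included 1 fall of 8, Apoa1, without which their sums overlapped, a choice made after the values were seen. Kupffer cell and macrophage markers summed to 149 and 216 CPM in Dph1 KO and 228 and 228 CPM in Control, with 1 fall of 6 (Cd68). Without Cd68, left out after the values were seen, they summed to 109 and 159 CPM in Dph1 KO and 114 and 122 CPM in Control, which overlap. Of the 6, 4 had a positive log2 fold change. Stellate markers summed to 126 and 109 CPM in Dph1 KO and 115 and 139 CPM in Control, with 2 falls of 5 (Des and Col1a1), and B cell markers to 3.81 and 3.25 CPM in Dph1 KO and 5.66 and 6.56 CPM in Control, with 1 fall of 3 tested (Cd79a). Endothelial markers summed to 135 and 137 CPM in Dph1 KO and 149 and 138 CPM in Control, and cholangiocyte markers to 22.3 and 18.9 CPM in Dph1 KO and 34.4 and 20.5 CPM in Control. Neutrophil markers (0.890 and 1.92 CPM in Dph1 KO, 2.23 and 1.00 CPM in Control) and T cell markers (1.36 and 2.10 CPM in Dph1 KO, 1.41 and 1.78 CPM in Control) were near 0. Erythroid markers summed to 274 and 272 CPM in Dph1 KO and 254 and 342 CPM in Control. The part of these sums in the falls of Bid and Bak1 was not tested.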

How the data were processed

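Liver RNA was made into stranded mRNA libraries, per the labels' protocols, 2 from Dph1 KO and 2 from Control livers. The builds GRCm38 and mm10 are named in the submitters' processing notes. For the aligner, the counter and its strand setting, the sources used here give nothing. Per the file headers, the authors deposited whole-number read counts per gene (total, unique, exon, junction and intron reads) and TPM values. The deposited RPKM values and the deposited fraction columns were not used.

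Total gene reads were compared in R 4.3.3 with edgeR 4.0.16 (filterByExpr, TMM factors of 1.157 and 1.035 in Dph1 KO and 0.945 and 0.884 in Control, glmQLFit and glmQLFTest, with no term but genotype). The Benjamini-Hochberg adjustment ran over 13303 genes, and the threshold was an adjusted p of 0.05. "Rose" and "fell" are used only for genes past it. The biological coefficient of variation was 18.5%. Uniquely matched reads made up 89.3% to 90.2% of gene reads.

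DESeq2 1.42.0, limma 3.58.1 (limma-trend on log2(TPM + 1), mean TPM of at least 1) and other scalings, filters and read classes were alternatives, as was each library left out. A GC and length offset was fitted per library with mgcv 1.9.3 (basis size 6) on the longest GENCODE transcript, found for 99.5% of protein-coding genes. Python 3.11.15 made the tables. All members passed the filter and matched a RefSeq promoter. Tested on simulated counts of 13123 genes, edgeR found 12.3% of the 1.5-fold changes, 66.7% of the 2-fold ones and 100% of the 4-fold ones, and made 4 false calls. Changes were planted only in genes above a CPM cut that Bcl2 does not reach. The simulation gave both genotypes the same spread and held no GC trend, unlike these libraries, so its shares may not carry over to them. Floors of 3 reads cover counting error only.

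The members and lists were chosen with earlier results of these data known. The rule named all members, Dph1, every tested gene of the other BCL2 family list, and the called genes with the 3 lowest p-values of each further list. A gene that the rule takes is not reported here and stays in the counts of its list. Of 142 list entries, 1 was not matched.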

Additional observations from a re-analysis of the deposited data

How the results depend on the processing

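The calls of Bid and Bak1 held under all 12 alternatives. Bcl2, Bcl2l11 and Mcl1 were called in none, Bax, Bok and Bcl2l1 only without Dph1 KO replicate 2, Bad there, in DESeq2 and with no filter, and Bnip3 there and in limma-trend. The 1640 genes called became 3423 with scaling to the library total and 2925 in limma-trend, which move the median log2 fold change of all genes by 0.26 and 0.28, and 528 to 5405 with 1 library left out. Members called ranged from 2 to 7 with 1 library left out. Rises made up 39.4% of calls, 77.0% with the library total and 80.8% in limma-trend. With the GC offset the sign reversed for Bax (0.36), Bok (0.18), Bcl2l1 (0.16), Mcl1 (-0.065), Bnip3 (-0.059), Bcl2l12 (0.32), Bcl2l13 (-0.14), Bik (0.20), Bbc3 (0.90) and Bnip3l (-0.082). With the library total it reversed for Bcl2 (0.15), Bcl2l1 (0.0092), Bcl2l11 (0.0010) and Bbc3 (0.26), and in limma-trend for Bcl2l1 (0.10), Bcl2l11 (0.10) and Bbc3 (0.34). With 1 library left out, Bcl2 ranged from -0.30 to 0.095, Bcl2l1 from -0.53 to 0.041 and Bbc3 from -0.21 to 0.21. The cause of these reversals was not tested. The difference in the summed pro-death over pro-survival TPM, Dph1 KO minus Control, was -1.20, and -0.60 without Bax and Bnip3, an alternative chosen after seeing the data. No paired analysis was possible because the labels give no replicate numbers, and those used here only name the libraries. Depth limits Bcl2 most, and changes near 1.5-fold were mostly missed in simulation.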

Other observations

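Intron reads of the members, which come from unspliced transcripts or other intronic sequence, did not all move with their gene totals. Mcl1 had 120 and 95 intron reads in Dph1 KO and 51 and 37 in Control. Its total reads were 2635 and 2177 in Dph1 KO and 1852 and 1831 in Control. Scaled with TMM factors, Dph1 KO held 195% of the Control mean in intron reads and 104% in total reads. Bak1 had 8 and 8 intron reads in Dph1 KO and 9 and 5 in Control, too few to compare. Over all genes, introns held 10.98% and 8.26% of reads in Dph1 KO and 8.64% and 6.24% in Control, and the part of this share in the Mcl1 counts was not tested.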
